A study of Homo sapiens with 8 samples.

Results

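The genes described here follow the life cycle of a catecholamine in a sympathetic cell, from its synthesis (TH, DDC, DBH and the cofactor gene GCH1) through its storage in vesicles (SLC18A1, SLC18A2) and its uptake at the cell surface (SLC6A2) to its breakdown (MAOA, MAOB). These 9 genes were chosen by name for their roles, with earlier results of these data known. All 9 were among the 18377 genes measured, each by exactly 1 row of the value table. RNA came from SHSY5Y, a human neuroblastoma cell line of neural crest origin, and was hybridised to 8 Affymetrix Human Gene 1.0 ST arrays. Stable lines selected with puromycin carried either an shRNA or the empty vector, and the codes V71 and PLKO in the sample titles name them.

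There were 4 groups of 2 arrays, V71 DF, PLKO DF, V71 NDF and PLKO NDF, which the methods describe as biological duplicates. All cells were grown on plates coated with laminin. DF cells were differentiated, first for 5 days in retinoic acid at 10 µM and next for 3 days without serum in BDNF at 2 nM. NDF cells stayed in growth medium with serum. DF and NDF therefore differ in retinoic acid, in BDNF and in serum at once, and these cannot be told apart. Each line is 1 stable line, so a difference between the lines cannot be told apart from a difference between these 2 cell populations. The treatment label gives the shRNA to the PLKO samples and calls the V71 samples control, whereas the methods name a pLKO vector as the control. The methods also give the shRNA a clone number that ends in the digits of V71. By the methods V71 would thus be the shRNA line, and by the treatment label PLKO would be. The target of the shRNA is not analysed here and could not check the labels, so the lines are called by their titles and each difference between them is V71 minus PLKO.

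Catecholamines are made from tyrosine in a fixed order. TH makes L-DOPA with tetrahydrobiopterin, the cofactor whose synthesis begins with GCH1, DDC turns L-DOPA into dopamine, and DBH, inside the vesicle, turns dopamine into noradrenaline. The vesicular transporters load the amines into storage vesicles, the noradrenaline transporter SLC6A2 takes the released amine back up, and the mitochondrial monoamine oxidases MAOA and MAOB deaminate what is left in the cytoplasm. Sympathetic neuroblasts, from which neuroblastoma is thought to arise, are known for expressing this set.

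The values are robust multi-array averages (RMA) on a log2 scale, so a difference of 1 is a doubling, and a value can be set only against the same gene on another array. No array gives a detection call, and the lower quartile of the rows of an array lay between 3.0 and 3.06, which serves here as a mark of dim rows. Of a list of 12 sympathetic neuroblast markers, 10 were analysed, and none was below that mark on any array, with a mean of 8.98 to 9.0 in V71 DF, 8.69 to 8.79 in PLKO DF, 8.71 to 8.82 in V71 NDF and 8.54 to 8.61 in PLKO NDF. Markers of Schwann cells (4 analysed), cholinergic neurons (3) and serotonergic neurons (3) had no called gene in any comparison. FABP7, SLC5A7, TPH1 and TPH2 were below the mark on all 8 arrays, whereas SOX10, S100B, ERBB3, CHAT and SLC18A3 were below it on none. SLC18A3, a cholinergic marker, changed upon differentiation by 0.54 in V71 (limma, adjusted p = 0.00892) and by 0.42 in PLKO (adjusted p = 0.0318), both short of a call. Markers of the flat, substrate-adherent mesenchymal cell that neuroblastoma lines can also hold did move. Of 16 such genes 5 were called lower and 0 higher in V71 than in PLKO in DF, against 1.26% and 1.81% of all genes. In NDF 8 were called lower and 0 higher, against 1.54% and 0.615%. Their mean was 4.54 to 4.68 in V71 DF and 5.09 to 5.12 in PLKO DF, and 4.61 to 4.71 in V71 NDF and 5.58 to 5.60 in PLKO NDF. Upon differentiation 1 of them rose and 5 fell in PLKO, against 2.88% and 4.16% of all genes, and 1 rose and 1 fell in V71, against 3.98% and 3.55%. The sympathetic neuroblast markers held calls too. Of the 10 analysed, 1 was called higher and 0 lower in V71 than in PLKO in DF, and 2 higher and 1 lower in NDF. Upon differentiation 3 of the 10 rose and 1 fell in V71, and 1 rose and 0 fell in PLKO. The marker lists were chosen with earlier results of these data known. Their counts and shares, here and below, are therefore a description and not a test. Of the mesenchymal markers, DCN and PRRX1 were below the mark on 4 arrays each and VIM on 2. In these bulk samples fewer cells of a type and less RNA per cell cannot be told apart, and the part of the mesenchymal markers in the results below was not tested.

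RefSeq promoter windows (GRCh38.p14) were matched for 5 of the 9 genes, DDC, DBH, SLC18A2, MAOA and MAOB, with 6 windows in all because DDC has more than 1 start. The 250 bases before the start were searched on both strands. The first pair is DBH and SLC18A2, a vesicular enzyme and transporter that were both called lower upon differentiation in V71. SLC18A2 was dim, and its call was lost without moderation of the variances. DDC, SLC6A2 and MAOA were called lower there too. Capitals mark the letters of a cAMP response element (CRE). The DBH window, chr9:133636113-133636362 on the plus strand, held the short core TGACG once, 181 bases before the start. The SLC18A2 window, chr10:117240864-117241113 on the plus strand, held the full palindrome TGACGTCA 48 bases before the start.
DBH: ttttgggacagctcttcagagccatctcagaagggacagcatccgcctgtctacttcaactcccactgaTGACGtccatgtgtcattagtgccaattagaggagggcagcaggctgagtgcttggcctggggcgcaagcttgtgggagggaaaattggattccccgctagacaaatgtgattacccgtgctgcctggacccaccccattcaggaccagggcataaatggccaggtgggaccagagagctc
SLC18A2: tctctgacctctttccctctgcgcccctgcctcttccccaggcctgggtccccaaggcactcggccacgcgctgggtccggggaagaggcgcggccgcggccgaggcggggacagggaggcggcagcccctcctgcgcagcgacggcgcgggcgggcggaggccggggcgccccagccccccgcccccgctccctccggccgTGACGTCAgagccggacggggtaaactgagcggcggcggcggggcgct
The core was found in 21.2% and the palindrome in 1.65% of all 35116 windows of this length, and neither was found in the windows of DDC, MAOA or MAOB. The palindrome holds the core on each strand, so the SLC18A2 window counts for both.

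The second pair is MAOA and MAOB, adjacent genes of the X chromosome, of which MAOA fell in V71 and MAOB did not pass the test. The MAOA window lies at chrX:43656049-43656298 on the plus strand and the MAOB window at chrX:43882451-43882700 on the minus strand. Capitals mark the GC box GGGCGG in either orientation.
MAOA: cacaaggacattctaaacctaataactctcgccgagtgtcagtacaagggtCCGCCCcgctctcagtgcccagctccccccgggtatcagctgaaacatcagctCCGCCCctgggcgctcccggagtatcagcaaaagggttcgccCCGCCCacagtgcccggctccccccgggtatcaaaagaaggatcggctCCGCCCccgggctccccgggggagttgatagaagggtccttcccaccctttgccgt
MAOB: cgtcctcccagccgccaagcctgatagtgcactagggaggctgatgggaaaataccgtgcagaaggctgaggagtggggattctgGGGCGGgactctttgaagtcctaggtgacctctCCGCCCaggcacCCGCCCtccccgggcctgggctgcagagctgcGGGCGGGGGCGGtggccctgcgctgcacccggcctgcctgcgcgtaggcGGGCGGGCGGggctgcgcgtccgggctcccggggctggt
The MAOA window held 4 such boxes, at 199, 146, 104 and 56 bases before the start, and the MAOB window held 7, at 165, 132, 120, 88, 82, 39 and 35, of which the last pair overlap. The SLC18A2 window held 3 and the windows of DDC and DBH none, and a GC box was found in 42.6% of all windows. Among the other letters searched, the E-box CANNTG, found in 61.8% of windows, occurred 3 times in DBH, once in MAOA and in 1 of the DDC windows. The nuclear receptor core AGGTCA (12.1% of windows) occurred once each in SLC18A2, MAOB and 1 DDC window. TAATTA (4.35%), AGATAA (9.17%) and a direct repeat of 5, the paired form of the nuclear receptor core (0.00285%), were in none of them. These matches describe letters only, and binding was not measured.

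Upon differentiation most of the set moved, and not in 1 direction. In V71, GCH1 and SLC18A1 rose while DDC, DBH, SLC18A2, SLC6A2 and MAOA fell, and TH and MAOB did not pass the test. In PLKO, GCH1 and SLC18A1 rose and DDC and SLC6A2 fell by the same rule. The rule for a call was an adjusted p under 0.05 in limma, with Benjamini-Hochberg adjustment over all rows, and a fold of at least 1.5. In V71 this gave 2 of 9 genes higher, against 3.98% of all genes, and 5 of 9 lower, against 3.55%. In PLKO it gave 2 of 9 higher, against 2.88%, and 2 of 9 lower, against 4.16%, while another 2, DBH and MAOA, passed on the adjusted p but were short of the fold. On the adjusted p with any fold, 15.8% of all genes passed in PLKO and 16.5% in V71. Because the 9 genes were chosen with earlier results known, these shares, and those given below for the lines, are a description and not a test. The median change over the 9 genes was, in log2 units, −0.78 in V71 and −0.16 in PLKO, beside −0.0036 and 0.013 over all genes. The plot of the 9 genes by array gives every value.

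**Figure D1:**
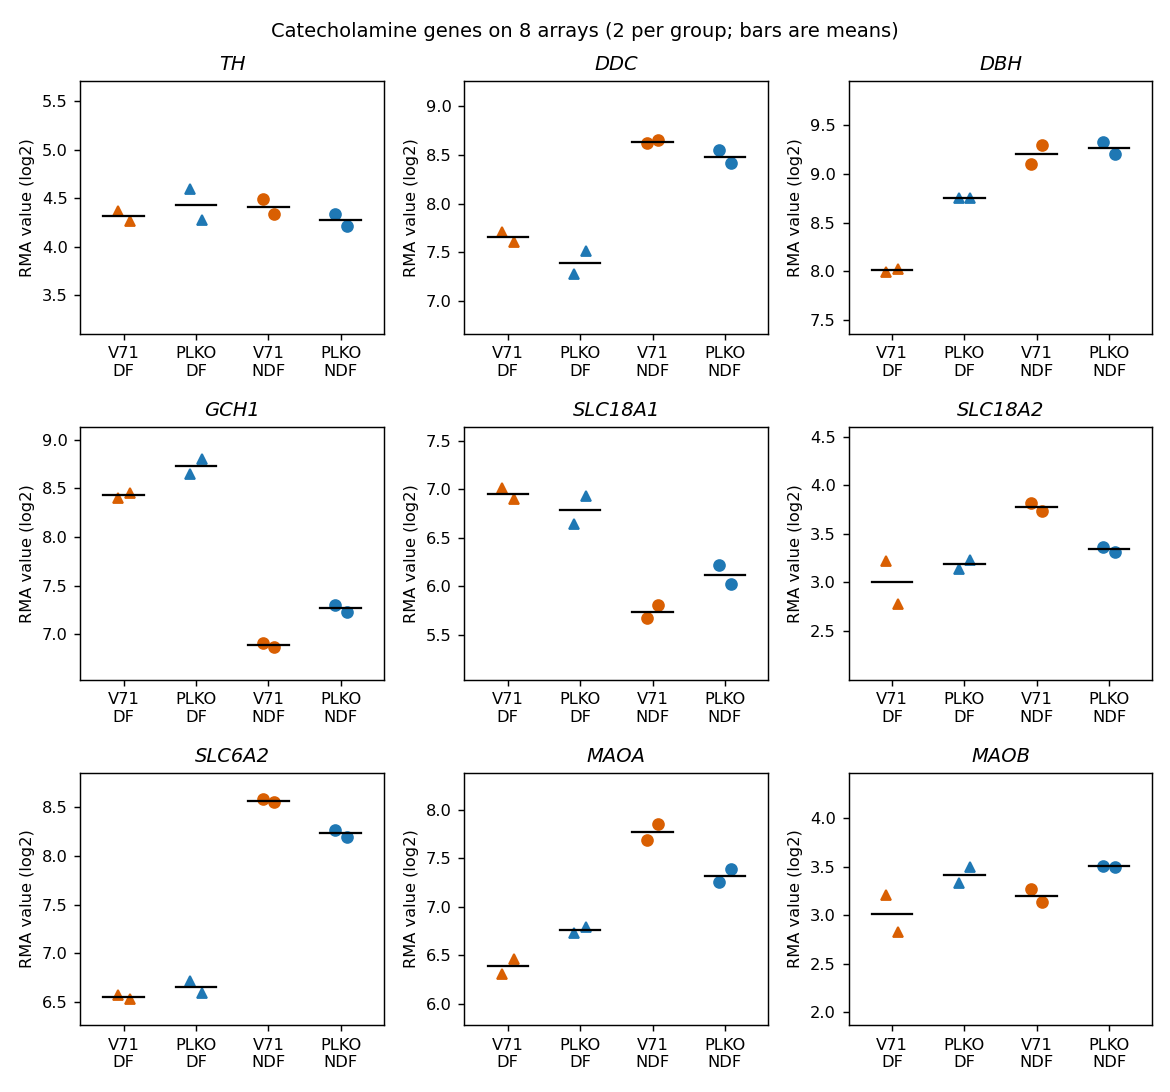
RMA value (log2 scale, vertical axis) of each of the 9 genes on the 8 arrays, in the groups V71 DF, PLKO DF, V71 NDF and PLKO NDF; points are arrays (triangles DF, circles NDF), bars are means of 2 arrays, and every panel spans the same number of log2 units around its own centre. SLC6A2 and MAOA sit lower in DF and GCH1 and SLC18A1 higher in DF on all arrays, whereas the 4 groups of TH overlap between 4.21 and 4.60.

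TH, the first and usually rate-limiting enzyme, read 4.37 and 4.26 on the V71 DF arrays, 4.60 and 4.27 on the PLKO DF arrays, 4.49 and 4.33 on the V71 NDF arrays and 4.34 and 4.21 on the PLKO NDF arrays. Every pair of groups compared overlapped, and all values lay near the median of an array, 4.60 to 4.68. The change upon differentiation was −0.10 in V71 (95% confidence interval −0.36 to 0.17, adjusted p = 0.719) and 0.16 in PLKO (−0.11 to 0.42, adjusted p = 0.518). Both intervals leave out a change by a factor of 1.5 in either direction. TH was thus the synthesis gene with no detectable change in its array values, unlike the enzymes that follow it. Without a detection call the share of TH in this signal is not known, so the intervals describe the array values only.

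DDC, which decarboxylates L-DOPA, read 7.71 and 7.61 in V71 DF and 8.63 and 8.65 in V71 NDF. In PLKO it read 7.27 and 7.51 in DF and 8.55 and 8.42 in NDF. Every DF array was below every NDF array in both lines. DDC fell by 0.98 ± 0.10 (SE) on the log2 scale in V71, a 1.97-fold decrease (adjusted p = 0.000207), and by 1.09 ± 0.10 in PLKO, a 2.13-fold decrease (adjusted p = 8.87e-05). The difference between these changes was 0.11 (interval −0.22 to 0.44, adjusted p = 0.905).

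DBH, the enzyme that makes noradrenaline, read 7.99 and 8.03 in V71 DF and 9.11 and 9.30 in V71 NDF, so that the conditions were well apart. In PLKO it read 8.75 on both DF arrays, against 9.32 and 9.21 in NDF. DBH fell by 1.20 ± 0.09 (SE) in V71, a 2.29-fold decrease (adjusted p = 3.47e-05). Its change in PLKO was −0.52 ± 0.09, a fold of 1.43, with an adjusted p of 0.00577, which passes on p and not on the fold.

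GCH1, the first enzyme of tetrahydrobiopterin synthesis, ran the other way. It read 8.41 and 8.45 in V71 DF and 6.91 and 6.87 in V71 NDF, and 8.65 and 8.80 in PLKO DF and 7.31 and 7.23 in PLKO NDF. The lowest DF array was more than a doubling above the highest NDF array of either line. GCH1 rose by 1.54 ± 0.09 (SE) in V71 (2.91-fold, adjusted p = 5.4e-06) and by 1.46 ± 0.09 in PLKO (2.75-fold, adjusted p = 5.7e-06). The changes differed by 0.08 (interval −0.20 to 0.36, adjusted p = 0.925).

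Among the vesicular transporters, SLC18A1 (VMAT1, the form best known from chromaffin cells) read 7.01 and 6.89 in V71 DF and 5.67 and 5.80 in V71 NDF, and 6.64 and 6.93 in PLKO DF and 6.22 and 6.03 in PLKO NDF. DF was above NDF in both lines. It rose by 1.22 ± 0.12 (SE) in V71 (2.33-fold, adjusted p = 0.00013) and by 0.66 ± 0.12 in PLKO (1.58-fold, adjusted p = 0.0051). The call in PLKO was close to its limits, since the change was 0.57 without PLKO NDF replicate 3 and 0.52 without PLKO DF replicate 2, both short of the fold, and the adjusted p was 0.0878 without moderation of the variances. A fit that leaves out 1 array has a lone array in that group, whose spread is assumed to be that of the other groups.

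SLC18A2 (VMAT2, the form best known from neurons) was dim. It read 3.22 and 2.78 in V71 DF and 3.82 and 3.73 in V71 NDF, and 3.14 and 3.23 in PLKO DF and 3.37 and 3.31 in PLKO NDF. The V71 NDF arrays stood above the other 6, and V71 DF replicate 2 was below the lower quartile. SLC18A2 fell by 0.78 ± 0.13 (SE) in V71 (1.71-fold, adjusted p = 0.00357), and its change in PLKO was −0.16 (interval −0.45 to 0.14, adjusted p = 0.572). Without V71 DF replicate 2 the change in V71 was −0.56, short of the fold, and without moderation its adjusted p was 0.0875. The pair of transporters therefore moved in opposite directions in V71, SLC18A1 up and SLC18A2 down.

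SLC6A2, the noradrenaline transporter of the plasma membrane, had the widest change of the 9 genes in both lines. It read 6.57 and 6.53 in V71 DF and 8.58 and 8.55 in V71 NDF, and 6.71 and 6.59 in PLKO DF and 8.27 and 8.20 in PLKO NDF. Its arrays agreed closely within groups, with the lowest residual SD of the 9 genes, 0.0517. SLC6A2 fell by 2.02 ± 0.08 (SE) in V71, a 4.05-fold decrease (adjusted p = 8.65e-07), and by 1.58 ± 0.08 in PLKO, a 2.99-fold decrease (adjusted p = 2.99e-06). The fall was larger in V71 by 0.43 ± 0.12, which did not pass after adjustment (adjusted p = 0.193).

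MAOA, the monoamine oxidase that prefers noradrenaline and serotonin, read 6.31 and 6.46 in V71 DF and 7.69 and 7.85 in V71 NDF. In PLKO it read 6.73 and 6.79 in DF and 7.26 and 7.38 in NDF. The 4 groups did not overlap, with V71 at both ends, the lowest in DF and the highest in NDF. MAOA fell by 1.38 ± 0.10 (SE) in V71, a 2.61-fold decrease (adjusted p = 1.91e-05). Its change in PLKO was −0.56 ± 0.10, a fold of 1.47, with an adjusted p of 0.00465, just short of the fold. It was called in PLKO without PLKO NDF replicate 2 (−0.62, adjusted p = 0.0205) and without PLKO DF replicate 2 (−0.59, adjusted p = 0.0198).

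MAOB, its neighbour and paralogue, was dim and gave no call upon differentiation. It read 3.20 and 2.83 in V71 DF and 3.27 and 3.13 in V71 NDF, which overlap, and 3.33 and 3.49 in PLKO DF and 3.51 and 3.50 in PLKO NDF. The change was −0.19 in V71 (interval −0.47 to 0.10, adjusted p = 0.443) and −0.09 in PLKO (−0.37 to 0.19, adjusted p = 0.769). The signal lay near the lower quartile of the arrays, so the intervals describe the array values only. Over the 8 arrays MAOA and MAOB correlated at r = 0.27, a description with no test because the arrays fall into 4 groups.

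**Figure D2:**
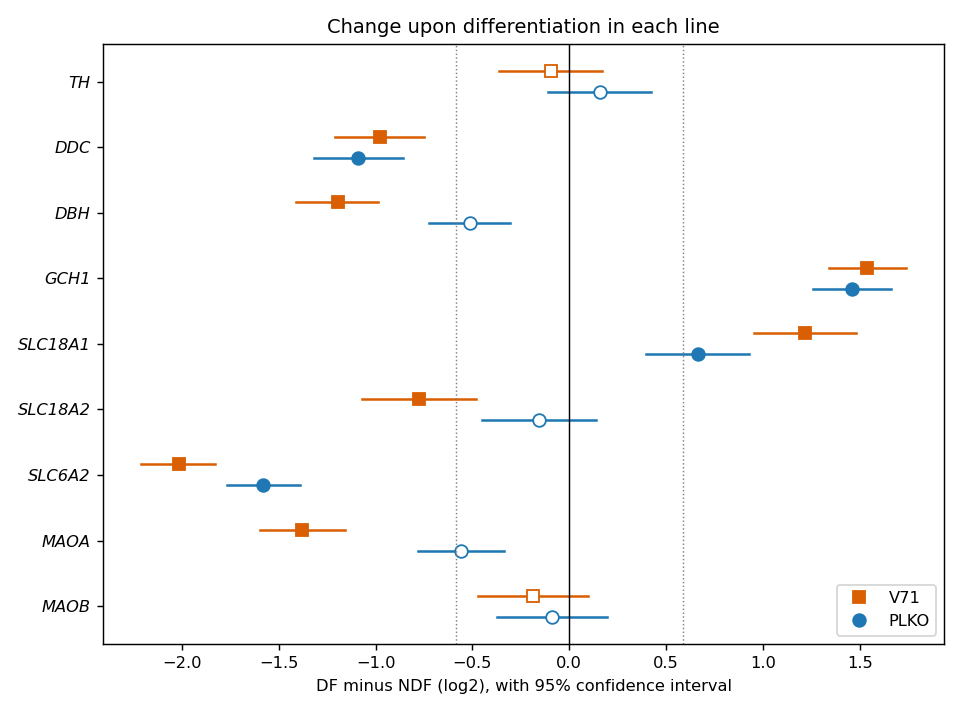
Change upon differentiation, DF minus NDF on the log2 scale (horizontal axis), of each gene in V71 (squares) and PLKO (circles), with 95% confidence intervals from limma; filled points were called, open points were not, and dotted lines mark a fold of 1.5. GCH1 lies at 1.54 and 1.46 in V71 and PLKO, DDC at −0.98 and −1.09, and MAOA and DBH lie farther from 0 in V71 than in PLKO.

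The question of the lines themselves gave 1 call among the 9 genes. In DF, 1 of 9 genes was called, DBH, which was lower in V71, whereas 1.26% of all genes were called lower and 1.81% higher. In NDF, 0 of 9 genes were called, where 0.615% of all genes were called higher and 1.54% lower by limma. At an unadjusted p under 0.05, 5 of 9 genes passed in DF, against 19.5% of all genes, and 6 of 9 in NDF, against 15%. Without moderation 0 of 9 were called in either condition, where 166 of all 18377 genes were called in DF and 99 in NDF. The median difference over the 9 genes was −0.19 in DF and 0.13 in NDF on the log2 scale, beside 0.0054 and 0.012 over all genes.

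In differentiated cells DBH read 7.99 and 8.03 in V71, against 8.75 on both PLKO arrays. V71 was lower by 0.74 ± 0.09 (SE) on the log2 scale, a fold of 1.67 (adjusted p = 0.00192). The call held whichever array was left out, but without moderation of the variances its adjusted p was 0.0634, and it is smaller than 2-fold. In NDF the lines overlapped for DBH, with 9.11 and 9.30 in V71 and 9.32 and 9.21 in PLKO, and the difference was −0.06 (interval −0.27 to 0.15, adjusted p = 0.875). Mesenchymal markers were also lower in V71 in DF, with 5 of 16 called, against 1.26% of all genes, and their part in the DBH difference was not tested.

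Of the other genes in DF, MAOB was −0.40 (adjusted p = 0.127), MAOA −0.37 (adjusted p = 0.065), GCH1 −0.30 (adjusted p = 0.102) and DDC 0.27 (adjusted p = 0.215) in V71 minus PLKO. None of these passed after adjustment. Without V71 DF replicate 1 (3.20) the MAOB difference was −0.59 with an adjusted p of 0.044, a value that rests on the lone V71 DF array left, which read 2.83 and was below the lower quartile. TH, SLC18A1, SLC18A2 and SLC6A2 differed by −0.12, 0.17, −0.18 and −0.10, with intervals that include 0.

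In undifferentiated cells MAOA was the gene with the largest difference, 7.69 and 7.85 in V71 against 7.26 and 7.38 in PLKO. It was 0.45 ± 0.10 (SE) higher in V71, a fold of 1.37 (adjusted p = 0.0466), so it passed on p and not on the fold. At an adjusted p under 0.05 with any fold, 3.41% of all genes pass in this comparison. SLC18A2 was 0.43 higher (adjusted p = 0.164) and SLC6A2 0.33 higher (adjusted p = 0.0896) in V71, and SLC18A1 was 0.39 lower (adjusted p = 0.173), GCH1 0.37 lower (adjusted p = 0.0632) and MAOB 0.30 lower (adjusted p = 0.344). None of these passed. DDC and TH differed by 0.16 and 0.13, with intervals that include 0.

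**Figure D3:**
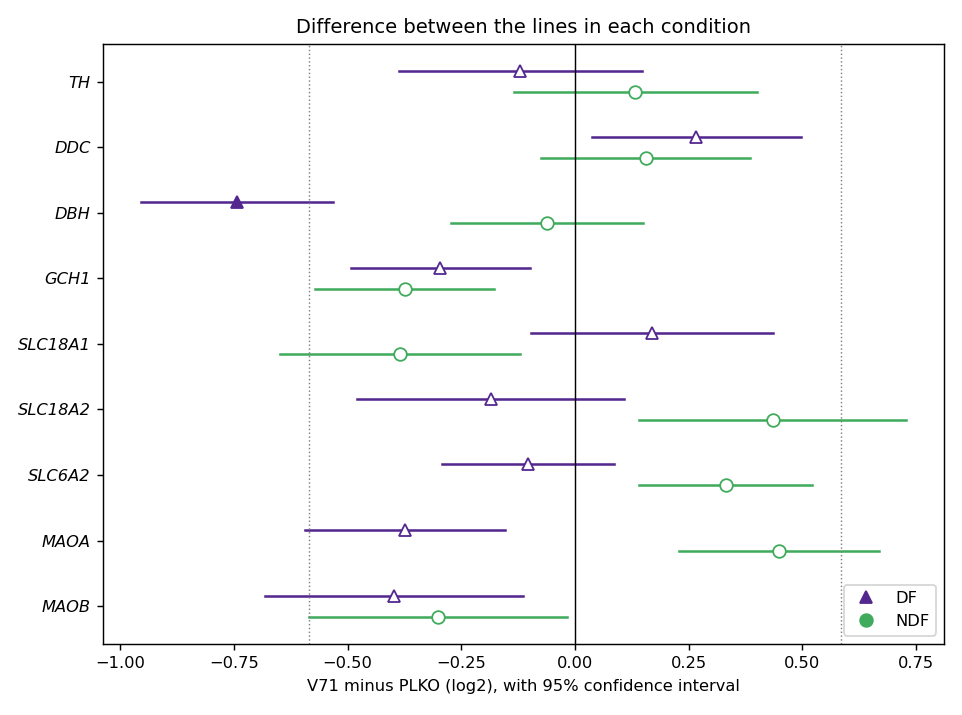
Difference between the lines, V71 minus PLKO on the log2 scale (horizontal axis), of each gene in DF (triangles) and NDF (circles), with 95% confidence intervals from limma; filled points were called, open points were not, and dotted lines mark a fold of 1.5. DBH in DF, at −0.74, is the 1 filled point, and MAOA lies at −0.37 in DF and 0.45 in NDF.

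Whether a gene changed by a different amount in the 2 lines was tested by the interaction, the change in V71 minus the change in PLKO. MAOA was the 1 of 9 genes called. Its fall was larger in V71 by 0.82 ± 0.14 (SE) on the log2 scale, a ratio of 1.77 between the fold changes (adjusted p = 0.0264). Among all genes 0.305% were called lower and 1.09% higher in this contrast. MAOA was above PLKO in V71 NDF and below it in V71 DF, with no overlap in either condition. Without moderation of the variances 3 of 18377 genes were called in the interaction, against 256 in the fit reported, so most calls of any gene were lost there. The MAOA call was fragile. It was lost in 6 of the 8 fits that each left out 1 array, without PLKO NDF replicate 2 (adjusted p = 0.15) or 3 (0.0821), V71 NDF replicate 3 (0.098), PLKO DF replicate 1 (0.0725) or 2 (0.074), or V71 DF replicate 1 (0.111), where the difference lay between −0.89 and −0.74, and without moderation the adjusted p was 0.263.

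DBH came next, with a fall larger in V71 by 0.68 ± 0.13 (SE) and an adjusted p of 0.0536, which misses the threshold. It passed with a trended and robust prior (adjusted p = 0.0103), with dim rows left out (0.0421) and with the adjustment made over rows with 1 gene (0.0381), and over all alternatives its adjusted p ran from 0.0103 to 0.284. SLC18A2 (−0.62, adjusted p = 0.248), SLC18A1 (0.55, adjusted p = 0.253) and SLC6A2 (−0.43, adjusted p = 0.193) did not pass. SLC18A2 was called without V71 DF replicate 1 (−0.84, adjusted p = 0.049). TH, DDC, GCH1 and MAOB had interactions of −0.25, 0.11, 0.08 and −0.10, with intervals that include 0. Among the mesenchymal markers 4 of 16 were called higher in the interaction, VIM, DCN, CDH11 and SNAI2, and 0 lower, against 1.09% and 0.305% of all genes. In V71, VIM read 3.20 in NDF and 2.91 in DF, and DCN 2.55 and 2.38. These values lay near or below the lower quartile of the arrays, which limits the fall that could be seen there. The part of the mesenchymal markers in the MAOA result was not tested.

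**Figure D4:**
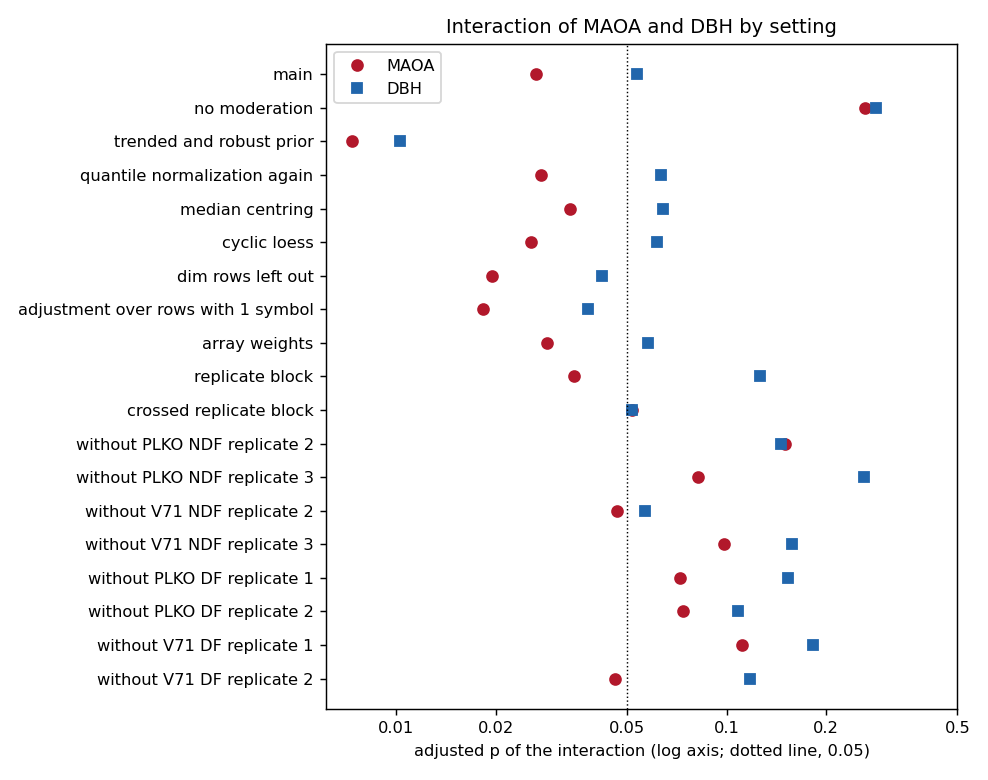
Adjusted p of the interaction (horizontal log axis) for MAOA (circles) and DBH (squares) under each processing alternative and with each array left out; the dotted line marks 0.05. MAOA lies at 0.0264 and DBH at 0.0536 in the fit reported, and both move across the line under some alternatives.

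The rest of the pathway gave no call. Of 30 further genes of cofactor supply, synthesis, transport, breakdown and reception of catecholamines, 22 were analysed, and 0 were called in any of the 4 comparisons or the interaction, with or without moderation. Of all genes, 1.81% were called higher and 1.26% lower between the lines in DF, and 0.615% and 1.54% in NDF. Upon differentiation the shares were 3.98% and 3.55% in V71 and 2.88% and 4.16% in PLKO, and in the interaction 1.09% and 0.305%. A count of 0 of 22 is near such shares. Without moderation between 3 and 957 of all 18377 genes were called in these comparisons. At an unadjusted p under 0.05 in limma, 5 of 22 passed in V71 minus PLKO in DF, against 19.5% of all genes, and 5 in NDF, against 15%. Upon differentiation 5 passed in V71, against 29.1%, and 4 in PLKO, against 28%, and 0 passed in the interaction, against 10.2%. Their differences upon differentiation lay, in log2 units, between −0.22 and 0.43 in V71 and between −0.19 and 0.41 in PLKO, with medians of 0.014 and 0.095. Between the lines they lay between −0.23 and 0.48 in DF and between −0.19 and 0.37 in NDF. ALDH1A1, an aldehyde dehydrogenase, was below the lower quartile on all 8 arrays.

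On the adjusted p alone, 2 of these 22 genes passed between the lines in DF, against 6.51% of all genes, and 0 in NDF, against 3.41%. Upon differentiation 2 passed in V71, against 16.5%, and 1 in PLKO, against 15.8%. The genes that passed are named after their values were seen. PCBD1, which recycles tetrahydrobiopterin, was higher in DF by 0.43 in V71 (adjusted p = 0.0124) and by 0.38 in PLKO (adjusted p = 0.0246), and it was higher in V71 than in PLKO by 0.39 in DF (adjusted p = 0.0404). It stands beside GCH1 in the same cofactor pathway with a much smaller change on the log2 scale. DRD2, a dopamine receptor, was higher in V71 by 0.48 in DF (adjusted p = 0.0397). ALDH3A2, another aldehyde dehydrogenase, was higher in DF by 0.32 in V71 (adjusted p = 0.0277). All were short of a fold of 1.5.

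The 10 sympathetic neuroblast markers analysed did not move as 1 group with the 9 genes. Upon differentiation 6 of 10 passed on the adjusted p in limma in V71, against 16.5% of all genes, and 6 in PLKO, against 15.8%. PHOX2A changed by −0.46 in V71 (adjusted p = 0.0152) and −0.24 in PLKO (0.191). HAND2 changed by −0.08 in V71 (0.673) and −0.34 in PLKO (0.0372). ISL1 changed by 0.34 in V71 (0.0812) and 0.43 in PLKO (0.0342). All were short of the fold. CHGB, a chromogranin of the storage vesicle, rose by 2.22 in V71 (adjusted p = 4.89e-06) and by 1.43 in PLKO (adjusted p = 5.41e-05) upon differentiation. It was higher in V71 than in PLKO by 1.58 in DF (adjusted p = 0.000111) and by 0.79 in NDF (adjusted p = 0.00924). CHGA, its relative, was higher in V71 by 0.99 in NDF (adjusted p = 0.00035), whereas ELAVL4, a neuronal RNA-binding protein, was lower in V71 by 0.66 in NDF (adjusted p = 0.00392). The change of CHGA upon differentiation was −0.44 in V71 (adjusted p = 0.0116) and 0.43 in PLKO (adjusted p = 0.0137), and the difference between these was −0.87 (adjusted p = 0.0142). GATA3, a transcription factor of sympathetic neurons, changed by −0.64 in V71 (adjusted p = 0.00134) and by −0.57 in PLKO (adjusted p = 0.00281) upon differentiation. TFAP2B, another transcription factor of the neural crest, changed by 0.68 in V71 (adjusted p = 0.00116) and by 0.49 in PLKO (adjusted p = 0.00747), the PLKO values of both being short of the fold. ELAVL4 changed by 0.90 in V71 (adjusted p = 0.000159) and by 0.29 in PLKO (adjusted p = 0.0712). None of these 3 passed in the interaction. Vesicle genes thus stood on both sides, with SLC18A1 and CHGB higher and DBH and the dim SLC18A2 lower in V71 DF than in V71 NDF.

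The patterns of the 9 genes over the 8 arrays were also set against each other and against the 979 genes whose group means span at least 1 log2 unit. These correlations describe 8 arrays in 4 groups, which share the conditions, so they carry no test. Among the 9 genes, SLC6A2 and GCH1 mirrored each other (r = −0.98), as did DDC and GCH1 (r = −0.98), while SLC6A2 ran with DDC (0.96) and with MAOA (0.95), GCH1 with SLC18A1 (0.95) and DBH with MAOA (0.89). TH correlated with none of the others beyond −0.20 to 0.24.

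Nearest to SLC6A2 in pattern were CHRM2 (r = 0.998), ID3 (0.994) and PTPRU (0.994), and nearest to GCH1 were XPNPEP1 (0.999), PTPRM (0.999) and KLHL5 (0.998). DDC lay nearest to KIF22 (0.995), NCAPG2 (0.994) and PCLAF (0.994). DBH was nearest to FJX1 (0.986), MYC (0.964) and MECOM (0.964), and MAOA to EPAS1 (0.991), DOK4 (0.985) and GRIA2 (0.978). SLC18A1 was nearest to ACSS2 (0.991), STAT4 (0.984) and CACNA2D2 (0.984). The likeness was lowest for the dim SLC18A2, with CD9 (0.917), ADM (0.907) and DOK4 (0.904).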

How the data were processed

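The 8 arrays, Affymetrix Human Gene 1.0 ST, each measured 1 SHSY5Y RNA sample. Per the labels and the methods, the authors used RMA in Partek 6.5 for normalization and summary, and they deposited log2 values, to which no further normalization was applied. The build of the array annotation is not given in the sources used here. Of 28869 rows, 19310 have 1 gene, 1752 several and 7807 none. The highest of a gene's rows stood for it, which gave 18377 genes, and each of the 9 genes has 1 row. RMA shrinks differences of dim rows towards 0.

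A model with 4 group means was fitted to all 8 arrays in limma 3.58.1 (R 4.3.3) with eBayes (4 residual and 5.43 prior degrees of freedom), and tested on simulated data. P values were 2-sided and adjusted by Benjamini-Hochberg over all rows. A call needed a fold of at least 1.5 and an adjusted p under 0.05. Intervals are 95%. The 2 arrays per group limit every value. Spearman correlations were at least 0.9947 within groups and at most 0.9931 between them. The methods name an analysis of variance, tried here as the fit without moderation. Other alternatives were median centring, cyclic loess or quantile normalization again, a trended and robust prior, array weights, leaving out dim rows (under the 33rd percentile), adjustment over rows with 1 gene, fits to only the 4 arrays compared, other folds, a replicate block and leaving out each array.

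The 9 genes, the pathway list and the marker lists were chosen with earlier results of these data known. By rule the text names all 9 genes, pathway genes that were called, and the 3 genes nearest in pattern to each of the 9 that was called in a comparison of 2 groups. The markers and the pathway genes named with values were chosen after their values were seen. Some genes are not analysed here.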

Additional observations from a re-analysis of the deposited data

Results flagged for a closer look

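MAOA was flagged because its change upon differentiation differed between the lines by the test of that difference itself. The change in V71 minus the change in PLKO was −0.82 on the log2 scale (limma, adjusted p = 0.0264). MAOA fell in both replicates of V71, to 6.31 and 6.46 in DF against 7.69 and 7.85 in NDF, and read 6.73 and 6.79 in DF against 7.26 and 7.38 in NDF in PLKO. Its adjusted p ranged from 0.00737 to 0.263 over the alternatives. With 2 arrays per group no test for a single outlying array was made.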

How the results depend on the processing

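The counts of called genes upon differentiation, 7 in V71 and 4 in PLKO, ranged from 5 to 7 and from 3 to 6. In V71 minus PLKO in DF the count of 1 (DBH) became 0 without moderation and 0 at a fold of at least 2, and was 1 to 2 with each array left out. In NDF the count of 0 became 1 (MAOA) with no fold threshold. The interaction count of 1 (MAOA) became 0 without moderation, 0 at a fold of at least 2, and 2 (with DBH) with a trended and robust prior, with dim rows left out and with adjustment over rows with 1 gene, and was 0 to 1 with each array left out. Values that turned sign when 1 array was left out were all far from the threshold, and their range over the arrays left out was −0.16 to 0.037 for DBH in V71 minus PLKO in NDF, −0.28 to 0.040 for TH and −0.40 to 0.034 for SLC18A2 in V71 minus PLKO in DF, −0.0038 to 0.32 for TH upon differentiation in PLKO, −0.38 to 0.0015 for MAOB upon differentiation in V71, and −0.0086 to 0.23 for DDC and −0.29 to 0.092 for MAOB in the interaction. Renormalization moved no call. The causes were not tested.

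The deviations of same-numbered arrays correlated at 0.188 in DF and −0.176 in NDF. These values do not settle whether the replicate numbers pair the arrays. With a replicate block the counts were 1 in DF, 0 in NDF and 1 in the interaction, and with crossed numbers, added after seeing the data, 1, 0 and 0. DF and NDF share 1 number, so no paired analysis was possible for the changes upon differentiation. SLC18A2 and MAOB lie near the dim end, where signal over background limits what can be seen.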
